A study of Mus musculus with 4 samples.

Results

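The 9 genes described here are Hemgn and 8 genes of red blood cell development: the embryonic globins Hbb-y, Hbb-bh1 and Hba-x, the haem synthesis gene Alas2, the transcription factors Klf1 and Gata1, the erythropoietin receptor Epor and the transferrin receptor Tfrc. They were taken by symbol from 23337 gene rows of a count table. They were selected on measured values, chosen by the CPM of Hemgn being higher in both mutant libraries, so the values of all 9 genes between genotypes are given as a description, with no test. Total RNA was sequenced, after removal of ribosomal RNA, from cardiac cushions, the swellings that form the valves of the outflow tract and atrioventricular canal, of C57BL/6 mouse embryos at embryonic day 14.5. The 2 mutant libraries came from Nfatc1Cre;Brg1F/F embryos, in which both loxP-flanked copies of Brg1 (gene symbol Smarca4, the ATPase of SWI/SNF chromatin remodelling complexes) can be deleted by a Cre made where Nfatc1 is active, that is in the endocardium and its descendants. The 2 wildtype libraries came from littermates, and the series is described as paired. Cells outside the Nfatc1Cre lineage keep Brg1, and tissue of both groups was taken by the GFP of a Cre reporter. Whether a library held 1 embryo or several is not given in the sources used here, so the spread between libraries may be technical in part.

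Red blood cells arise from haematopoietic progenitors under the transcription factors GATA1 and KLF1, survive through erythropoietin and its receptor, take up iron through the transferrin receptor and end filled with haemoglobin. In mouse embryos the first wave of red cells, made in the yolk sac, carries embryonic globins, and the later wave from the fetal liver carries adult globins and circulates through the heart. Hemgn encodes hemogen, a nuclear protein of haematopoietic cells. Because the heart contains blood, a dissected cushion can hold red cells of both waves, and in bulk RNA fewer cells of a type and less RNA per cell cannot be told apart.

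Reads in genes numbered 22426537 and 14104458 in mutant replicates 1 and 2, and 19218820 and 15790338 in wildtype replicates 1 and 2. Levels are CPM, read counts scaled to the TMM-adjusted size of each library, and 3 reads corresponded to 0.132 to 0.212 CPM. Smarca4 measured 282 and 239 CPM in the mutant libraries and 251 and 231 CPM in the wildtype libraries, a log2 fold change of 0.11 ± 0.14 (SE; edgeR adjusted p 0.979), so the counts show no fall of the deleted gene and do not bear out the labels. Counts over the whole gene do not separate the deleted exons from the rest. Mutant replicate 2 stood apart in sex-linked transcripts. Its Xist level was 13.3 CPM, against 2659 CPM in mutant replicate 1 and 2047 and 2317 CPM in the wildtype libraries. Kdm5d, Eif2s3y, Uty and Ddx3y, all Y-linked, measured 79.9 to 239 CPM there, 0 in both replicates numbered 1, and 0.694 to 1.77 CPM in wildtype replicate 2. Alas2 and Gata1 lie on the X chromosome.

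Hemgn had 131 and 75 reads in mutant replicates 1 and 2, against 11 and 4 reads in wildtype replicates 1 and 2. These counts correspond to 5.77 and 5.30 CPM in the mutant libraries (exact 95% binomial intervals 4.82 to 6.84 and 4.17 to 6.64) and to 0.586 and 0.252 CPM in the wildtype libraries (0.292 to 1.05 and 0.0688 to 0.646). Both mutant libraries lay above both wildtype libraries, and the intervals, which cover counting error only, did not meet. Hemgn was chosen for being higher in both mutant libraries, so this separation restates the choice and is not a test. The mean was 5.53 ± 0.332 CPM in mutant and 0.419 ± 0.236 CPM in wildtype cushions (SD, n = 2 each), a ratio of 13.2 and a log2 fold change of 3.67 ± 0.41 (SE). By size of log2 fold change Hemgn stood at rank 10 of 14316 genes that passed the low-count filter, which it passed only through the mutant libraries. With mutant and wildtype libraries of the same number taken as pairs, the ratio was 9.84 in pair 1 and 20.98 in pair 2. When the library that stood apart, mutant replicate 2, was left out, the log2 fold change was 3.73, and without wildtype replicate 1, the higher of the wildtype libraries, it was 4.42.

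**Figure D1:**
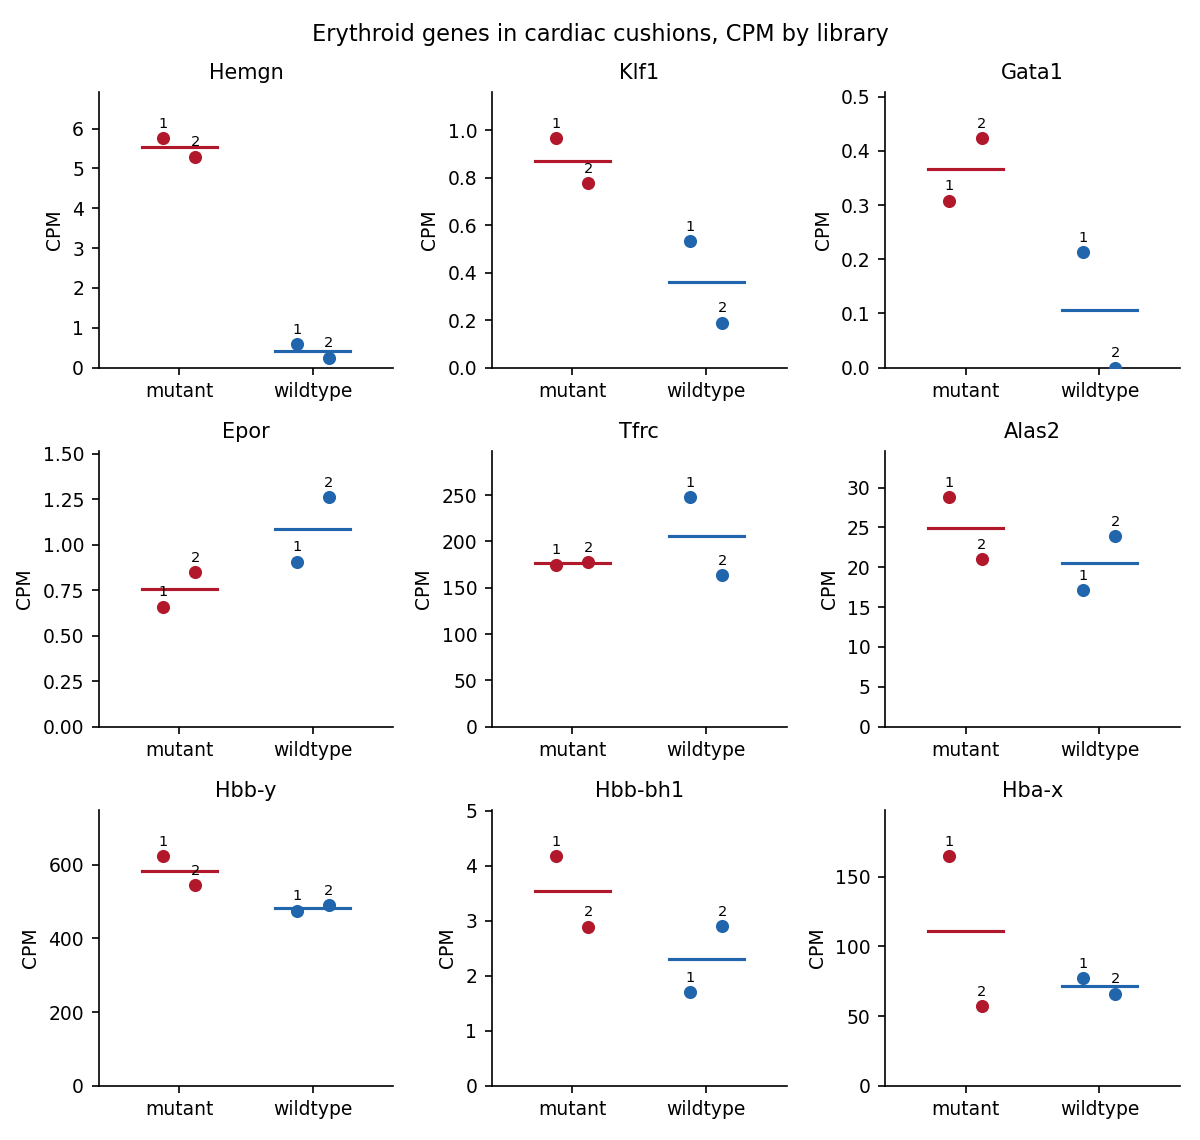
Levels of the 9 genes in CPM (linear axes from 0) in the 2 mutant libraries (red, left) and the 2 wildtype libraries (blue, right); digits mark the replicate and bars the mean of 2. Hemgn is at 5.30 to 5.77 CPM in mutant and 0.252 to 0.586 CPM in wildtype cushions, while the groups overlap for Tfrc, Alas2, Hbb-bh1 and Hba-x.

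Hemgn lies on chromosome 4 from 46393989 to 46413506 on the minus strand of the mm10 build and overlaps no other annotated gene. Of the 2 nearest protein-coding genes on each side, those with more than 1 read differed less between genotypes. Since Hemgn was chosen for its difference, that order was largely set by the choice and is a description. Trmo, a tRNA methyltransferase gene counted under an older name, measured 5.68 and 5.93 CPM in mutant and 4.899 and 3.60 CPM in wildtype libraries. Anp32b, 37396 bp away, measured 76.6 and 49.2 CPM in mutant and 35.1 and 58.3 CPM in wildtype libraries, so its groups overlapped. Nans, a sialic acid synthase gene, measured 33.5 and 41.2 CPM in mutant and 37.97 and 34.0 CPM in wildtype libraries, and Foxe1 had 1 read in all.

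GATA factors bind short motifs that contain GATA, so the 250 bases before the start of each gene were searched on both strands for the letters AGATAA or for TGATAA, and also for the letters AGATAG or for TGATAG, none of which coincides with another at the same position. Such letters were present in 26.5% of 32851 RefSeq promoters of the GRCm38.p6 build. They were present for 6 of the 8 erythroid genes with an entry, and absent from the windows of Gata1 and Tfrc; Hbb-bh1 had no entry. The match nearest to the start of each of these 6 genes is shown, with those of Rhag, Kel and Ermap, 3 red cell membrane genes described below, because they are the genes whose values are described in most detail. Sequences run 5′ to 3′ on the gene's strand and the matched letters, read on either strand, are in capitals. By the GENCODE annotation, whose starts differ from those of RefSeq, the stretches of Hemgn and Hba-x lie within exons of their own genes and those of Rhag and Kel reach into one. The matches are a description of letters and not a measure of binding.
Hemgn, chr4:46404179-46404208, minus strand, 13 bases before the start: acctgtgcagtgTGATAAagaaagtggaat
Klf1, chr8:84901890-84901919, plus strand, 80 bases before the start: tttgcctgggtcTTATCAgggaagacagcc
Epor, chr9:21963613-21963642, minus strand, 54 bases before the start: ggtggctgtagcTTATCTgtccccagcctg
Alas2, chrX:150547319-150547348, plus strand, 86 bases before the start: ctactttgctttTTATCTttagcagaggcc
Hbb-y, chr7:103853352-103853381, minus strand, 162 bases before the start: atctaatgtgcaTTATCAtaaacacagtgt
Hba-x, chr11:32276480-32276509, plus strand, 108 bases before the start: tgttgctggctcTGATAAcaggctccaccc
Rhag, chr17:40811106-40811135, plus strand, 31 bases before the start: agtcctctgctcTTATCAacactatacagc
Kel, chr6:41704327-41704356, minus strand, 19 bases before the start: gtgttccctcacTGATAAgcaggctccacc
Ermap, chr4:119190045-119190074, minus strand, 67 bases before the start: tgaacgctcgctTTATCAggggtgggcaga

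Among the progenitor genes, Klf1, Gata1 and Epor were each read 22 times or fewer in every library, so their order between genotypes is loosely determined, and the abundant Tfrc overlapped between genotypes. Klf1, which activates globin and red cell membrane genes, had 22 and 11 reads in the mutant libraries, against 10 and 3 reads in the wildtype libraries. Its level was thus 0.968 and 0.777 CPM in mutant and 0.533 and 0.189 CPM in wildtype cushions, with a log2 fold change of 1.24 ± 0.59 (SE). Klf1 lies on chromosome 8 from 84901928 to 84905291. The groups did not overlap, but most of their exact intervals did. The interval of wildtype replicate 1 (0.255 to 0.979 CPM) met those of mutant replicates 1 (0.607 to 1.47) and 2 (0.388 to 1.39). That of wildtype replicate 2 (0.0390 to 0.553 CPM) met that of mutant replicate 2. Like Hemgn, Klf1 passed the filter only through the mutant libraries.

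Gata1, the master regulator of the red cell and megakaryocyte lineages, had 7 and 6 reads in the mutant libraries, against 4 and 0 reads in the wildtype libraries. These are 0.308 and 0.424 CPM in mutant and 0.213 and 0 CPM in wildtype cushions, where the 3-read floor was 0.189 CPM and the exact 95% upper bound of 0 reads 0.233 CPM. Gata1, on chromosome X from 7959260 to 7978071, alone of the 9 genes did not pass the low-count filter, so the filtered edgeR fit gives it no fold change. Its log2 fold change was 1.59 ± 1.17 (SE) by edgeR with no filter and 1.73 ± 1.73 (SE) by DESeq2. A difference was not detectable at this depth. Epor had 15 and 12 reads in the mutant libraries and 17 and 20 reads in the wildtype libraries, or 0.660 and 0.847 CPM in mutant against 0.905 and 1.26 CPM in wildtype cushions. The gene lies on chromosome 9 from 21958897 to 21963506. Both mutant libraries lay below both wildtype libraries, with a log2 fold change of -0.53 ± 0.46 (SE) that is close to its own error.

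Tfrc, which many dividing cells besides red cell precursors express, measured 175 and 178 CPM in mutant and 248 and 164 CPM in wildtype cushions. Wildtype replicate 1 was the highest and wildtype replicate 2 the lowest of the 4 libraries, so the mutant libraries lay between them (log2 fold change -0.22 ± 0.18, SE). Tfrc made up nearly all of the summed level of the 4 progenitor genes, which was 177 and 180 CPM in mutant and 250 and 165 CPM in wildtype cushions. A sum over these genes therefore follows Tfrc and not the blood-restricted Klf1 and Gata1.

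The mature red cell genes differed between genotypes by far less than Hemgn. Since Hemgn was chosen for its difference, nothing is read from that order. Hbb-y, the embryonic epsilon-type globin, measured 624 and 544 CPM in mutant and 475 and 490 CPM in wildtype cushions. Both mutant libraries were above both wildtype libraries, by a ratio of means of 1.21 and a log2 fold change of 0.28 ± 0.14 (SE). Hba-x, the embryonic zeta globin, measured 165 and 56.9 CPM in mutant and 77.1 and 66.0 CPM in wildtype cushions. Its level in mutant replicate 1 was the highest of the 4 and that in mutant replicate 2 the lowest, and the log2 fold change of 0.64 ± 0.38 (SE) rests on mutant replicate 1. Within pairs Hba-x was at a ratio of 2.14 in pair 1 and 0.861 in pair 2.

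Hbb-bh1, the other embryonic beta-like globin, had 95 and 41 reads in the mutant libraries and 32 and 46 reads in the wildtype libraries. At 4.18 and 2.90 CPM in mutant and 1.70 and 2.90 CPM in wildtype cushions, the groups overlapped (log2 fold change 0.64 ± 0.36, SE). Alas2, the first enzyme of haem synthesis in red cells, measured 28.8 and 21.05 CPM in mutant and 17.1 and 23.9 CPM in wildtype cushions, which also overlapped (0.29 ± 0.22, SE). Part of Alas2 overlaps Apex2 on the opposite strand, and the strand setting of the counting is not given in the sources used here, so their reads cannot be told apart. Apex2 measured 7.83 and 7.13 CPM in mutant and 5.96 and 8.20 CPM in wildtype cushions, highest in wildtype replicate 2. Hbb-bh1 and Hbb-y are neighbours in the beta globin cluster of chromosome 7, from 103841637 to 103843164 and from 103851749 to 103853216, and Hba-x lies on chromosome 11 from 32276400 to 32278116. Alas2 spans 150547375 to 150570638 on chromosome X, and Tfrc 32608920 to 32632794 on chromosome 16. No 50-base window of the transcripts of the 9 genes recurs in another gene.

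Set side by side with 0.1 CPM added, the mature and the progenitor genes had near-equal medians over all libraries but took them from different pairs. With 0.5 CPM added the medians were 0.40 for the mature and 0.15 for the progenitor genes, and with 0.02 CPM added 0.45 and 0.50. With 0.1 CPM added to each mean, the median log2 ratio of mutant over wildtype was 0.44 over Hbb-y, Hbb-bh1, Hba-x and Alas2, and 0.43 over Klf1, Gata1, Epor and Tfrc, against 0.0034 over 19935 rows with reads. The mature genes were at 0.92 in pair 1 and -0.094 in pair 2, and the progenitor genes at -0.010 in pair 1 and 0.86 in pair 2. In pair 2 Klf1 had 11 reads in mutant against 3 in wildtype, and Gata1 6 against 0, so that value is loosely determined. The 4 progenitor genes did not move as a group, since Klf1 and Gata1 alone had a median of 1.13 while their sum with Epor and Tfrc gave -0.22. Adding Hemgn to them raised the median to 1.08. In 4 of the 9 genes (Hemgn, Klf1, Gata1 and Hbb-y) both mutant libraries were above both wildtype libraries, as in 15.8% of rows with reads, and in 1 (Epor) both were below, as in 14.5%; since this contrast chose the genes, nothing is read from those counts.

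**Figure D2:**
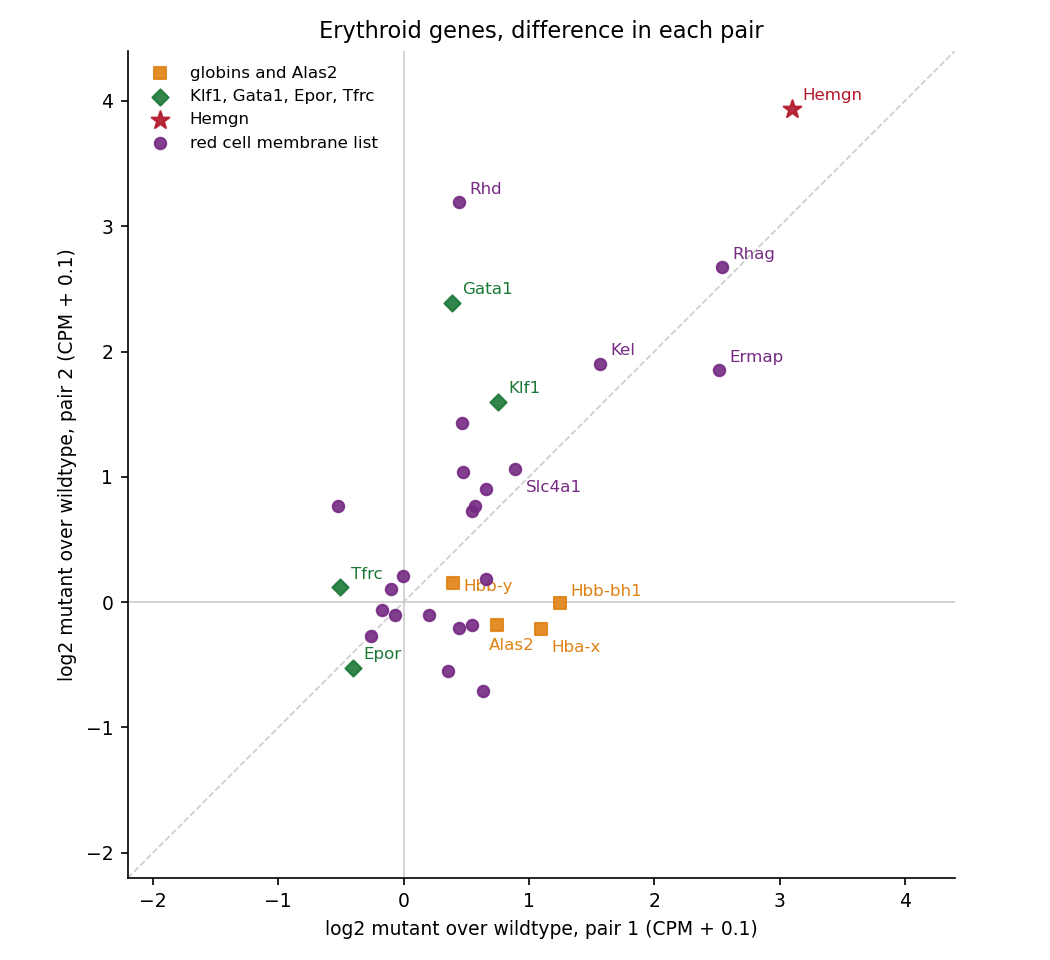
Log2 ratio of mutant over wildtype CPM (0.1 CPM added to each) in pair 1 (x axis) and pair 2 (y axis) for the 9 genes and the 22 genes of the red cell membrane list; the dashed line marks equal ratios. Among the labelled genes, Hemgn, Klf1, Gata1, Rhag, Rhd, Kel, Ermap, Slc4a1 and, close to 0, Hbb-y lie above 0 in both pairs. Klf1 and Gata1 rest on few reads. Hbb-bh1, Hba-x and Alas2 lie above 0 in pair 1 and at or below 0 in pair 2.

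Per kilobase of exon, Hbb-y was the most abundant of the 9 genes at a mean over the 4 libraries of 843 CPM per kb (750 to 986). Hba-x followed at 97.2 (60.6 to 176), Tfrc at 30.9 (26.5 to 40.1), Alas2 at 9.46 (7.14 to 11.997) and Hbb-bh1 at 4.76 (2.78 to 6.82) CPM per kb. The libraries of these neighbours in the order did not overlap. Hemgn was next at 1.18 CPM per kb, with the widest range relative to its mean (0.101 to 2.30), then Epor at 0.462 (0.332 to 0.635) and Klf1 at 0.403 (0.124 to 0.633), whose ranges overlapped. Gata1 was lowest at 0.0969 CPM per kb (0 to 0.174). In the mutant libraries Hemgn stood above Epor and Klf1 per kilobase, and in the wildtype libraries below both.

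Adult globin overlapped between genotypes. The adult beta globin Hbb-bs, counted under the row Beta-s, measured 60.3 and 67.5 CPM in mutant and 42.3 and 89.9 CPM in wildtype cushions, so the mutant libraries lay between the wildtype ones (log2 fold change -0.05 ± 0.29, SE). The adult alpha globin rows Hba-a1 and Hba-a2 held 0 or 1 read in every library. Their transcripts share 67.5% and 86.9% of their 50-base windows with another gene, Hbb-bs shares 65.8%, and reads that align to several places were left out of gene rows, so adult globin levels are uncertain.

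Hemgn can also be set against embryonic globin within each library. The 3 embryonic globins summed to 793 and 604 CPM in mutant and 554 and 559 CPM in wildtype cushions. Per 1000 CPM of embryonic globin, Hemgn held 7.27 and 8.77 CPM in mutant, against 1.06 and 0.451 CPM in wildtype cushions. The Hemgn level chose these genes, so the distance between these values restates it and is a description. With 2 against 2 libraries an exact two-sided permutation test cannot give a p below 0.333, so none was run on this ratio.

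Beyond the 9 genes, 126 genes in 7 erythroid lists were examined, of which 118 had reads and 106 passed the filter. In edgeR's quasi-likelihood test none of the 106 passed an adjusted p of 0.05, against 0.0629% of all genes tested (0.0559% higher and 0.00699% lower). Before adjustment, 18 were higher and 1 lower in mutant cushions at p under 0.05, against 3.88% and 1.9% of all genes. With the replicate number as a block, 7 were called, all higher, against 0.887% of all genes in either direction (0.692% higher and 0.196% lower). With DESeq2 4 were called, all higher, against 0.402% of all genes (0.268% higher and 0.134% lower). In 36 of the 118 genes both mutant libraries were above both wildtype libraries and in 7 both were below, against 15.8% above and 14.5% below over all rows with reads. The median log2 ratio was 0.10. The lists were chosen with earlier results of these data known. Of the 106 genes, 4 passed the filter only through the mutant libraries. The counts are therefore given as a description.

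The red cell membrane list held the largest share of genes higher in mutant cushions among the 7 lists. Both mutant libraries were above both wildtype libraries in 11 of its 22 genes and below them in 1 (15.8% and 14.5% of all rows), with a median log2 ratio of 0.32 and 0.47 in each pair; 3 of its genes, Rhag, Rhd and Slc14a1, passed the filter only through the mutant libraries. Rhag, the Rh-associated glycoprotein, measured 1.41 and 1.34 CPM in mutant and 0.160 and 0.126 CPM in wildtype cushions, where it had 3 and 2 reads, with a log2 fold change of 3.20 ± 0.57 (SE). By edgeR its adjusted p was 0.128, and 0.00878 with the replicate block. Ermap, an erythroid membrane-associated protein, measured 3.83 and 3.67 CPM in mutant and 0.586 and 0.947 CPM in wildtype cushions (log2 fold change 2.30 ± 0.37, SE; edgeR adjusted p 0.0949, and 0.00279 with the block).

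Kel, the Kell blood group endopeptidase, measured 3.34 and 3.81 CPM in mutant and 1.07 and 0.947 CPM in wildtype cushions. The fitted log2 fold change of 1.81 ± 0.34 (SE) had an edgeR adjusted p of 0.143, and 0.0156 with the block. Slc4a1, the band 3 anion exchanger, measured 20.9 and 17.9 CPM in mutant and 11.2 and 8.52 CPM in wildtype cushions (0.97 ± 0.20, SE; edgeR adjusted p 0.179, and 0.0226 with the block). In all 4 genes both pairs gave a ratio above 1. Over the 11 settings tried, the adjusted p ranged over 0.000425 to 0.788 for Slc4a1, 0.0016 to 0.655 for Rhag, 0.000361 to 0.61 for Kel and 2.09e-06 to 0.522 for Ermap.

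Other membrane genes were weaker or did not separate. Rhd, the Rh blood group antigen, measured 0.616 and 2.54 CPM in mutant and 0.426 and 0.189 CPM in wildtype cushions, so its level in mutant replicate 2 was far above the other 3. The most abundant genes of the list are not restricted to red cells. Tmod1, tropomodulin, measured 283 and 248 CPM in mutant and 297 and 267 CPM in wildtype cushions, and Epb41, protein 4.1, measured 170 and 136 CPM in mutant and 147 and 146 CPM in wildtype cushions, and both overlapped.

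The other lists held 3 further genes called with the block. Ikzf1, a transcription factor of lymphoid, myeloid and red cell precursors, measured 5.63 and 7.20 CPM in mutant and 1.38 and 1.70 CPM in wildtype cushions (log2 fold change 2.05 ± 0.30, SE; edgeR adjusted p 0.0654, and 0.00116 with the block). Ptpn6, the phosphatase SHP-1 that damps erythropoietin receptor signalling and is also a leukocyte gene, measured 8.85 and 6.07 CPM in mutant and 3.35 and 2.97 CPM in wildtype cushions (edgeR adjusted p 0.207, and 0.0388 with the block). Slc40a1, the iron exporter ferroportin, which macrophages also carry, measured 25.9 and 28.2 CPM in mutant and 13.8 and 16.6 CPM in wildtype cushions (edgeR adjusted p 0.184, and 0.0391 with the block). Over the 11 settings the adjusted p ranged over 5.63e-08 to 0.293 for Ikzf1, 0.000876 to 0.776 for Ptpn6 and 0.00313 to 0.946 for Slc40a1.

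Haem synthesis, the pathway of Alas2, was near level between genotypes. Of its 18 genes, 2 were higher and 2 lower without overlap (15.8% and 14.5% of all rows), and the median log2 ratio was 0.05. Isca1, an iron-sulfur cluster assembly gene and the most abundant, measured 69.6 and 79.9 CPM in mutant and 70.9 and 75.9 CPM in wildtype cushions. Among 13 red cell enzyme genes 5 were higher and 2 lower (15.8% and 14.5% of all rows), with a median of 0.04. Car2, carbonic anhydrase 2, measured 15.6 CPM in both mutant libraries and 9.85 and 9.34 CPM in wildtype libraries, with an edgeR adjusted p of 0.307. Of 23 transcription factor genes 6 were higher and none lower (15.8% and 14.5% of all rows), with a median of 0.06. The abundant Sox6 and Nfe2l2 overlapped.

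Erythropoietin signalling and iron handling, the settings of Epor and Tfrc, each had 6 genes higher and 1 lower without overlap, of 15 and 22 with reads (15.8% and 14.5% over all rows), and each a median log2 ratio of 0.20. The erythropoietin gene itself had no read. Kit, the receptor of stem cell factor, measured 58.2 and 52.0 CPM in mutant and 42.4 and 39.3 CPM in wildtype cushions (edgeR adjusted p 0.626), and its ligand Kitl measured 116 and 122 CPM in mutant and 89.6 and 93.9 CPM in wildtype cushions (0.589, edgeR). Heph, the copper oxidase that works with ferroportin, was the 1 gene lower at an unadjusted p under 0.05, at 48.6 and 61.2 CPM in mutant and 79.4 CPM in both wildtype libraries, with an edgeR adjusted p of 0.416.

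**Figure D3:**
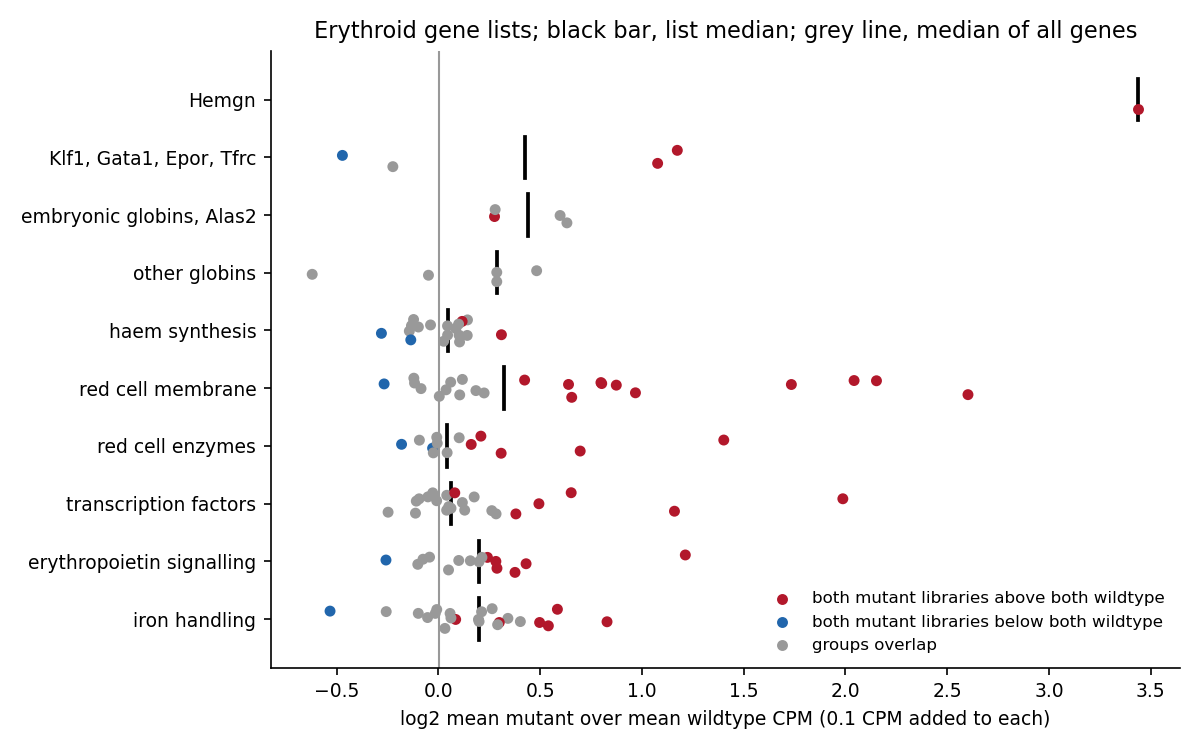
Log2 ratio of mean mutant over mean wildtype CPM (0.1 CPM added to each) for every gene with reads, by list; each point is a gene, coloured by whether the 2 mutant libraries lie above, below or among the 2 wildtype libraries. The red cell membrane list reaches furthest to the right of the 7 pathway lists, with a median of 0.32, and haem synthesis centres near 0 with a median of 0.05.

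In the authors' deposited table, which covers 11507 rows, 4 of the 9 genes have a row: Hbb-y, Hba-x, Alas2 and Tfrc. None of the 4 passed 0.05 in the authors' deposited table, where 43 of the 11507 rows did. There, 3 of the 90 pathway genes with a row in the authors' deposited table passed: Slc4a1 at an adjusted p of 0.00384, Ptpn6 at 0.00793 and Slc40a1 at 0.0125. Hemgn, Rhag, Kel, Ermap and Ikzf1 have no row there, so the authors' deposited table holds no test of them.

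Markers of other blood and liver cells were measured beside these genes, since dissected tissue can carry them. Of 21 leukocyte genes with reads, 20 had both mutant libraries above both wildtype libraries (15.8% of all rows), and the list summed to 214 and 236 CPM in mutant and 116 and 109 CPM in wildtype cushions. Ptprc, the pan-leukocyte antigen CD45, measured 29.4 and 26.1 CPM in mutant and 6.71 and 7.51 CPM in wildtype cushions (edgeR adjusted p 0.0119). Hepatocyte genes, of which 6 of 16 were higher and 1 lower without overlap (15.8% and 14.5% of all rows) but only 5 passed the low-count filter, summed to 14.4 and 24.6 CPM in mutant and 10.1 and 10.7 CPM in wildtype cushions. Alb measured 3.65 and 8.12 CPM in mutant and 1.92 and 0.694 CPM in wildtype cushions. Both sums were thus higher in mutant cushions, and their part in the levels of Hemgn and the membrane genes was not tested.

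The sums of other lineages lay closer together between genotypes. Megakaryocyte genes summed to 107 and 95.1 CPM in mutant and 93.1 and 97.3 CPM in wildtype cushions, which overlapped. Of 16 genes, 5 were higher and 2 lower without overlap (15.8% and 14.5% of all rows), and most of the sum was Vwf, Itgb3 and Mmrn1. Ppbp measured 2.82 and 2.97 CPM in mutant and 1.07 and 1.26 CPM in wildtype cushions (edgeR adjusted p 0.355), while Pf4 and Gp1ba overlapped. Mast cell genes summed to 79.8 and 75.4 CPM in mutant and 63.1 and 61.2 CPM in wildtype cushions, and most of that sum was Kit. Of 11 genes with reads, 5 were higher and 1 lower without overlap (15.8% and 14.5% of all rows), and Fcer1a was at 0. With the block Cma1, a mast cell chymase, was called higher (edgeR adjusted p 0.0156) and Slc18a2, a monoamine transporter, lower (0.0334), and neither without it (0.179 and 0.173). Cpa3 measured 2.16 and 3.53 CPM in mutant and 1.17 and 0.505 CPM in wildtype cushions. Mcpt4 measured 1.58 and 1.34 CPM in mutant and 0.799 and 0.442 CPM in wildtype cushions, while Hdc overlapped. Cma1, Cpa3 and Mcpt4 passed the filter only through the mutant libraries. Stem and progenitor genes summed to 575 and 564 CPM in mutant and 535 and 531 CPM in wildtype cushions. Of 17 genes, 4 were higher and 1 lower without overlap (15.8% and 14.5% of all rows). Most of the sum was Cd34, Mecom and Meis1, each of which overlapped, while Flt3, Gfi1 and Hoxa9 had 3 reads or fewer in every library. The sum therefore follows those abundant genes. The endocardial list, the lineage of the Cre, summed to 1355 and 1370 CPM in mutant and 1408 and 1449 CPM in wildtype cushions. Without Npr3, which measured 124 and 132 CPM in mutant and 243 and 229 CPM in wildtype cushions, the sums were 1232 and 1238 CPM in mutant and 1165 and 1220 CPM in wildtype cushions, so the order turned round. Cardiomyocyte genes summed to 54299 and 57571 CPM in mutant and 67562 and 61079 CPM in wildtype cushions, lower in both mutant libraries. None of 10 genes was higher and 3 were lower without overlap (15.8% and 14.5% of all rows). Among them Nppa, the atrial natriuretic peptide, measured 214 and 244 CPM in mutant and 550 and 419 CPM in wildtype cushions (edgeR adjusted p 0.0683, and 0.00246 with the block).

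**Figure D4:**
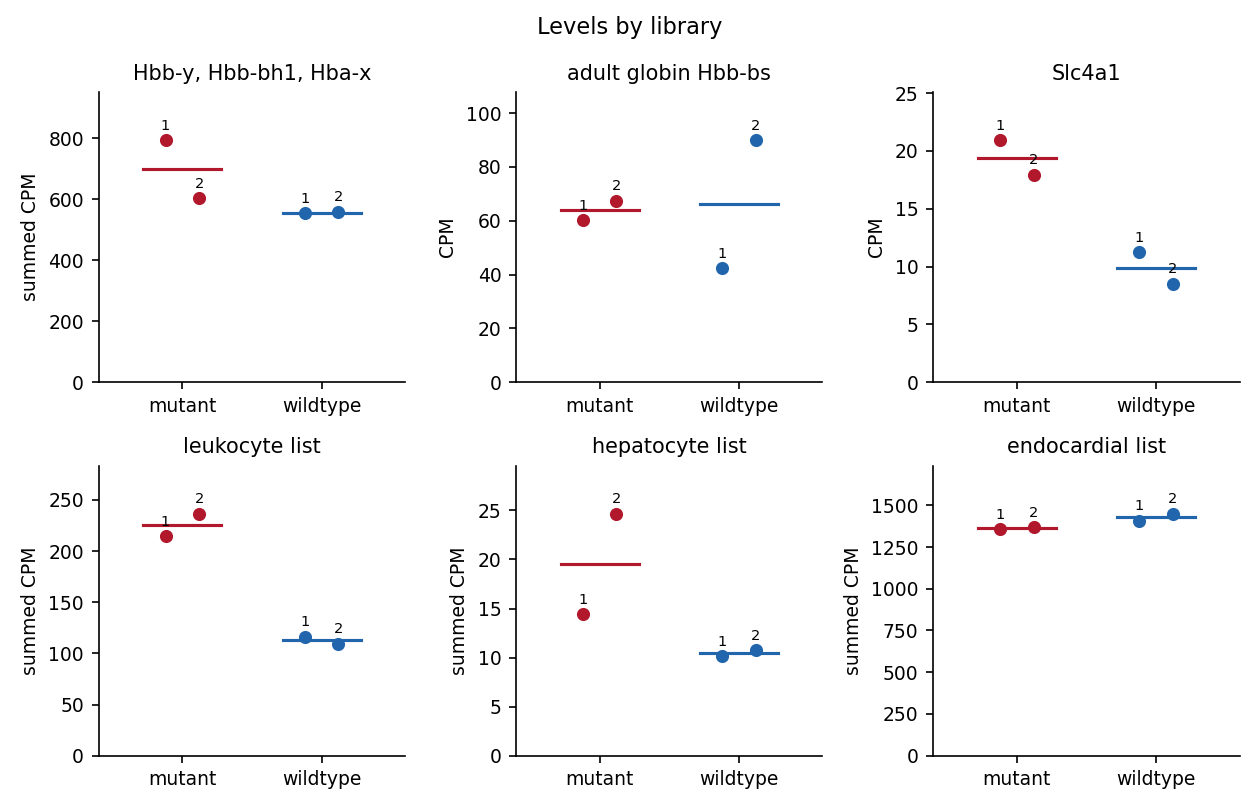
CPM per library (linear axes from 0) of the summed embryonic globins, the adult globin Hbb-bs, the red cell membrane gene Slc4a1 and the summed leukocyte, hepatocyte and endocardial lists, with mutant (red) left of wildtype (blue), digits for the replicate and bars for the mean of 2. Slc4a1 (20.9 and 17.9 CPM in mutant, 11.2 and 8.52 CPM in wildtype) and the leukocyte list are apart between genotypes, while Hbb-bs overlaps.

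The 5 genes whose centred log2 CPM profile over the 4 libraries lay nearest that of Hemgn, among 12825 compared, were Itgax, Cd74, Il1b, Mpo and Spic, at Euclidean distances of 0.558, 0.704, 0.782, 0.938 and 0.954. They were picked for likeness to a profile that is itself high in mutant libraries, and all 5 passed the filter only through those libraries, so their levels are a description and nothing is read from which genes they are. Itgax, the integrin CD11c, measured 2.29 and 1.41 CPM in mutant and 0.160 and 0.0631 CPM in wildtype cushions. Spic, a transcription factor of iron-recycling macrophages, had 14 reads in each mutant library and 1 and 0 reads in wildtype libraries. These profiles rest on 4 libraries and on few wildtype reads.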

How the data were processed

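The authors deposited raw counts per gene symbol and a table of their own edgeR comparison, which per the file headers holds p-values, a likelihood ratio score, log2 CPM, log2 fold changes and, for some rows, a fold change ratio. Its log2 fold changes as deposited are wildtype over mutant and are turned round here. The submitters' processing notes name mm10, HTSeq, TopHat2, Bowtie2, SAMtools and edgeR, with no version; gene annotation and strandedness of counting: not given in the sources used here. Reads outside any feature (51.8% to 54.4%), aligned to several places (16.1% to 17.0%) or ambiguous (0.187% to 0.210%) stayed out of library sizes and tests. No column belonged to other samples.

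Counts were fitted here with edgeR 4.0.16 in R 4.3.3 over all gene rows: TMM scaling, filterByExpr (14316 genes kept, at about 0.571 CPM in 2 libraries), the quasi-likelihood F test of genotype over all 4 libraries, Benjamini-Hochberg adjustment and a threshold of 0.05. DESeq2 1.42.0, other filters and scalings, each library left out and the replicate block were alternatives. The series calls the samples paired with littermates, but the labels do not say which littermates pair. Reading libraries of the same number as pairs is therefore an assumption, on which all blocked values and pair ratios rest. Deviations from the group means correlated across genes at 0.144 between libraries of the same number. With 2 libraries a group the other pairing gives the same value with its sign reversed, so it cannot settle the pairing. Blocked values stand where they change a call. Log2 ratios of list medians use 0.1 CPM added. Gene coordinates and exon lengths come from GENCODE M21, promoters from RefSeq (GRCm38.p6). Fits were tested on simulated data. Intervals cover counting error only, since reads are not independent molecules.

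The 9 genes and the lists were chosen with earlier results of these data known. Named beyond the 9 were, per list, genes called with or without the block, up to 2 of highest mean CPM and up to 2 of smallest p under 0.05, with lists of other cell types given mainly by sums. Added by name were Hemgn's neighbours, the 5 nearest profiles and the marker genes. Some genes of the lists are not reported here by name.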

Additional observations from a re-analysis of the deposited data

How the results depend on the processing

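The count of all genes past the threshold, 9 without the block, was 127 with the replicate block, 236 with no filter and 60 with DESeq2, and 9 with RLE scaling, with a filter of CPM 5 in 2 libraries and with the 10 most abundant genes left out. For the erythroid pathway lists the count of 0 became 7 with the replicate block, 8 with no filter and 4 with DESeq2. With the replicate block 4 of the 7 were in the red cell membrane list, and 6 remained when genes that pass the filter only through mutant libraries were left out; these 2 settings were chosen after seeing the data. Leaving out each library in turn gave 3 to 443 genes in all and 0 to 10 pathway genes: 6 without mutant replicate 1, 10 without mutant replicate 2, and 0 without either wildtype replicate. In such a fit the lone library is assumed to vary like the other group.

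The log2 fold change of Hemgn was 3.66 to 3.69 under the other settings, 3.69 with the replicate block, and 3.23 to 4.42 with a library left out, the highest without wildtype replicate 1. The median of the mature red cell genes was 0.10 to 0.67 with a library left out and 0.36 as the mean of the pairs, but -0.094 in pair 2 alone. That of the progenitor genes was 0.17 to 0.93 with a library left out, but -0.22 from summed CPM, 1.08 with Hemgn added and 1.13 for Klf1 and Gata1 alone. It also moved with the CPM added, to 0.15 with 0.5 CPM and 0.50 with 0.02 CPM, against 0.40 and 0.45 for the mature genes. Low wildtype counts (11 and 4 reads for Hemgn) limit the precision of its ratio, and 2 libraries a group limit every test.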
